A study of Mus musculus with 9 samples.

Results

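The variable (V) segments of the mouse immunoglobulin heavy chain locus were examined for what remained of the repertoire once the single most abundant segment of each library had been set aside. Members were the genes whose symbol begins with Ighv on the mouse reference that also held the human transgene sequences, 115 of the 22174 genes of that table. Their 166 transcripts lie on chromosome 12 (genome build GRCm38). The libraries were made from splenic B cells, enriched with a pan B cell kit, of C57/BL6NTac mice, 1 library per mouse and 3 mice per group. Eµ-MTCP1 mice (Z2551, Z2606 and Z2641, all of founder line Z36) carry human MTCP1 and Eµ-TCL1 mice (B4376, B4437 and C1594) carry human TCL1, each under an immunoglobulin heavy chain promoter and the Eµ enhancer, which direct expression to B cells, and both groups were taken with significant disease burden. Wildtype mice (Z2754, Z2755 and Z2785) were littermates without the human MTCP1 transgene. The groups were described as age-matched, and ages were not given in the labels.

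Each developing B cell joins 1 V segment to 1 diversity (D) and 1 joining (J) segment of the heavy chain locus, and its daughter cells keep that choice. A mixed B cell population therefore transcribes many V segments, while the offspring of a single cell share the same one in their antibody. A cell can also carry a non-productive rearrangement on its other allele, which may be transcribed, so a further segment in a library need not come from other cells. V segments are grouped by sequence into families (VH1, VH2 and so on, the first number of the symbol), and lie in a long array that begins beside the D segments. Segments of families VH11 and VH12 are known for antibodies against phosphatidylcholine made by B-1 cells, the CD5+ B cells of mice.

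Expression of the human transgenes followed the labels. On the authors' normalized log2 scale TCL1A was 14.9 to 15.6 in Eµ-TCL1 mice and 6.04 to 6.96 in the others, and MTCP1 was 11.1 to 12.3 in Eµ-MTCP1 mice and 5.85 to 6.19 in the others. The libraries held 6464089 to 8053017 assigned reads, of which 0.186 to 0.797% fell on Ighv segments. A segment with 3 reads or fewer, which equals 0.373 to 0.464 reads per 1000000 assigned reads (CPM), was treated as under the floor. Z2755 was sequenced on lane 1 and the other 8 libraries on lane 5. Summed T cell markers (Cd3e, Cd3d, Cd3g, Cd4 and Cd8a) were 2.32 to 38.7 CPM in transgenic mice, highest in B4376, and 2.68 to 4.77 CPM in wildtype.

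Of the 115 segments, 8 had no read in any library and 102 had over 3 reads in at least 1 library. The segments start 149 to 2570 kb from Ighj1, the joining segment nearest to them, and 113 are transcribed from the minus strand. For position, the range of start coordinates was divided into 3 equal spans of 807 kb, a D-proximal span with 44 segments that ends at Ighv12-3, a middle span with 40 that runs from Ighv6-3 to Ighv8-6, and a distal span with 31 that begins at Ighv1-54. VH1 was the largest family with 54 segments, followed by VH5 with 11.

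The germline sequences on which the results turn are the segments that led a library and those that came next in a transgenic library. The last 120 bases of each, from GENCODE M21 (GRCm38), are given 5′ to 3′ on the minus strand, with capitals from the codon of the conserved cysteine near the end of the V segment to the last annotated base.
Ighv5-4 (chr12:113597446-113597565): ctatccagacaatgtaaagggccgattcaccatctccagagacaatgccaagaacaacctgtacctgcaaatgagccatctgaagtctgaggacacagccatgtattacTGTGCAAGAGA
Ighv2-3 (chr12:113611187-113611306): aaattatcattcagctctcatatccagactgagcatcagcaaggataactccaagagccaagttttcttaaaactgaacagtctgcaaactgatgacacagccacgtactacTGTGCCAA
Ighv5-17 (chr12:113859149-113859268): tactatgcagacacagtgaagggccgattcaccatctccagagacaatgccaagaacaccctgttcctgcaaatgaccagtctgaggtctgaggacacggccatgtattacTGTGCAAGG
Ighv14-1 (chr12:113931953-113932072): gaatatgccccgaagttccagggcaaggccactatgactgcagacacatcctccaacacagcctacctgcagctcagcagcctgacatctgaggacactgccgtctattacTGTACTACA
Ighv14-2 (chr12:113994469-113994588): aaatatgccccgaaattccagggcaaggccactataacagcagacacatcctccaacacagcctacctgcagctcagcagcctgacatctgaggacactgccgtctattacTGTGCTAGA
Ighv11-2 (chr12:114048241-114048360): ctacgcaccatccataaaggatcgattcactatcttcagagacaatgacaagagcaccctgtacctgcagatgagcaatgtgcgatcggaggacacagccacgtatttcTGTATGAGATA
Ighv12-3 (chr12:114366521-114366640): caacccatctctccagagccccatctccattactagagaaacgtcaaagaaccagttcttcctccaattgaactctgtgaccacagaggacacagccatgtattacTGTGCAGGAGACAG
Ighv1-15 (chr12:114657353-114657472): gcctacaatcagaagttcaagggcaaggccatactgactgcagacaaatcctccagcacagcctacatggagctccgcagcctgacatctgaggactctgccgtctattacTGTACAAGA
Ighv1-50 (chr12:115119748-115119867): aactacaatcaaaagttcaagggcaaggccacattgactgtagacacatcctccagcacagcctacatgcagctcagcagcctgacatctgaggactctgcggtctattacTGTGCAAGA
Ighv1-55 (chr12:115208095-115208214): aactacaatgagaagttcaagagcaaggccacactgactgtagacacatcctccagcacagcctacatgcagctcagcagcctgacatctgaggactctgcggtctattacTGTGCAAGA

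The 6 segments that led at least 1 library were Ighv5-4, Ighv5-17, Ighv12-3, Ighv1-15, Ighv1-50 and Ighv1-55. Ighv14-1, Ighv14-2, Ighv2-3 and Ighv11-2 are shown because they were first among the reads left in a transgenic mouse. Over the last 290 bases Ighv14-1 and Ighv14-2 were 96.9% identical, Ighv1-50 and Ighv1-55 were 92.1% identical, and Ighv12-3 was 61.5% identical to Ighv5-4 and 62.1% to Ighv11-2.

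Wildtype B cells used segments of nearly every family and all 3 spans of the locus. VH1 held 45.4% ± 1.44 (SD, n = 3) of Ighv reads, close to its 47.0% share of the segments, while the 11 VH5 segments held 20.2% ± 2.88. The next families were VH3 with 4.98% ± 1.43, VH8 with 4.61% ± 0.310, VH9 with 4.61% ± 1.05 and VH2 with 4.15% ± 0.733. These 4 families did not differ beyond their spread. VH4 has a single segment here, Ighv4-1, and it took 2.54% ± 1.41. VH11 held 1.18% ± 0.843 and VH12, with Ighv12-3 as its 1 segment, held 0.257% ± 0.198. Ighv16-1 had no read in any wildtype mouse.

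By position, the D-proximal span held 43.2, 43.5 and 45.8% of wildtype Ighv reads, the middle span 28.3, 28 and 28.3%, and the distal span 28.5, 28.5 and 25.8% (mice Z2754, Z2755 and Z2785). The use of whole spans was thus close to constant between wildtype mice, while single segments varied more. Ighv5-17 held 2.37, 5.83 and 14.8% in the same order and Ighv5-4 held 11.6, 3.14 and 3.53%. Ighv1-53 held 3.55, 4.30 and 7.56%, Ighv3-6 held 4.13, 2.74 and 5.53%, and Ighv9-3 held 2.17, 4.27 and 3.84%. These 5 segments had the highest means and together took 26.4% of reads. Between the highest and the lowest wildtype mouse the share of the 34 segments with a mean of at least 1% differed by a median of 2.08-fold, and by 6.24-fold for Ighv5-17.

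Within families, the segment used most in wildtype was Ighv6-3 for VH6 (2.48% ± 1.03), Ighv8-12 for VH8 (2.21% ± 0.765), Ighv2-9-1 for VH2 (1.72% ± 1.11) and Ighv7-3 for VH7 (1.66% ± 0.389). It was Ighv11-2 for VH11 (1.17% ± 0.851), Ighv10-1 for VH10 (1.11% ± 0.611) and Ighv14-4 for VH14 (0.963% ± 0.388). Among the 12 families with at least 1% of wildtype reads, the most used segment lay in the D-proximal span for 8, in the middle span for 3 (VH1, VH6 and VH10) and in the distal span for VH8 alone.

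**Figure D1:**
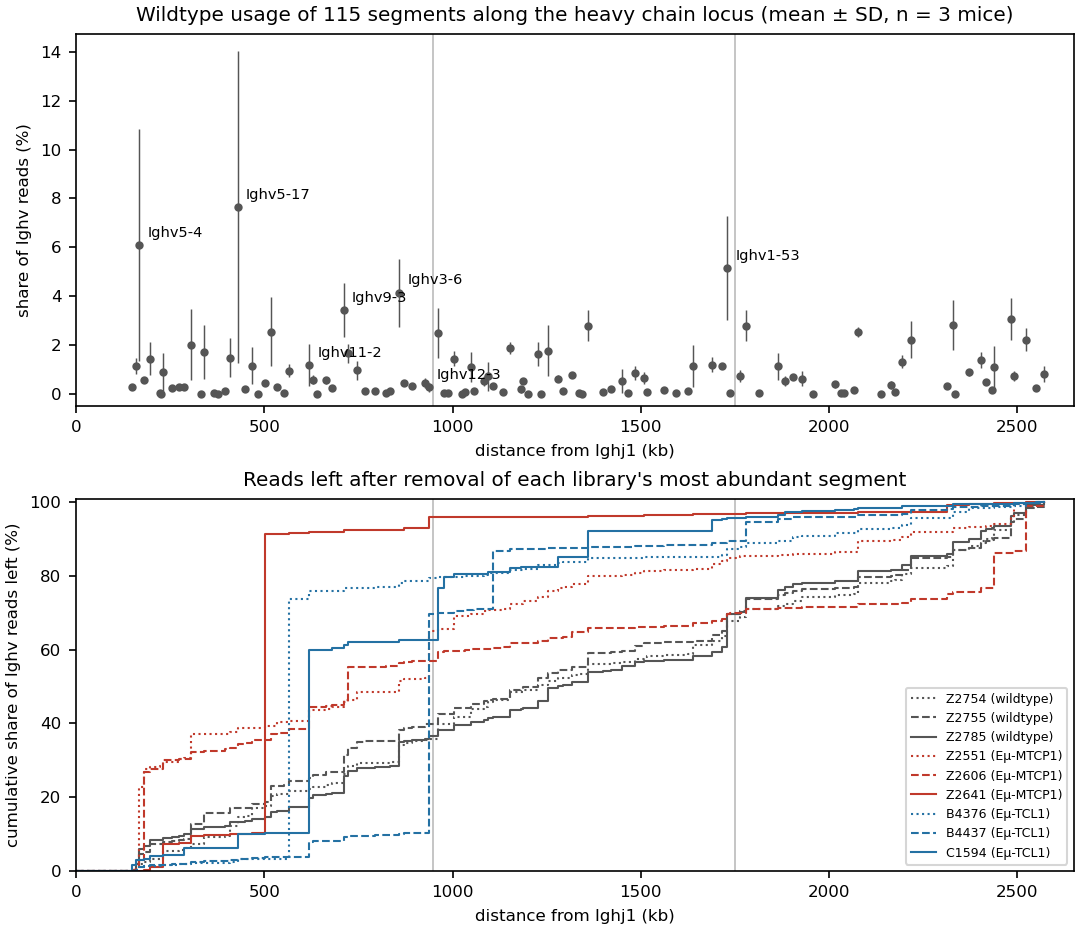
Upper panel: mean share of Ighv reads (percent, bars ± SD, n = 3 wildtype mice) for each of the 115 segments against the distance from Ighj1 in kb. Lower panel: cumulative share of the reads left in each mouse after its most abundant segment was removed, along the same axis. Wildtype curves climb over the whole locus, with 35.8 to 40.0% of reads in the D-proximal span, while the transgenic curves reach 56.9 to 96.0% by the end of that span, several of them in a single step.

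The reads left after removal of the most abundant segment were compared next, to describe the B cell repertoire that accompanied the leading one. In wildtype mice Ighv5-4 (Z2754) or Ighv5-17 (Z2755 and Z2785) was removed, and 2644, 3003 and 3723 CPM of Ighv reads were left. In Eµ-MTCP1 mice Ighv1-55, Ighv12-3 and Ighv5-4 were removed from Z2551, Z2606 and Z2641, and 87.2, 332 and 339 CPM were left. In Eµ-TCL1 mice Ighv1-50, Ighv1-15 and Ighv12-3 were removed from B4376, B4437 and C1594, and 172, 289 and 85.1 CPM were left. Every transgenic mouse was below every wildtype mouse, and relative to the wildtype mean the rest of the repertoire stood at 2.79, 10.6 and 10.8% in Eµ-MTCP1 and at 5.50, 9.24 and 2.72% in Eµ-TCL1 mice. The mean was 6.95% ± 3.77 (SD, n = 6), 8.09% ± 4.59 in Eµ-MTCP1 and 5.82% ± 3.27 in Eµ-TCL1 (n = 3 each), so the models differed by less than the spread within them. Removing all segments of at least 5% of Ighv reads from the transgenic mice only, which took Ighv14-1 from Z2641 and Ighv12-3 from B4437 as well, lowered these mice to 2.05 and 3.75% and the mean over the 6 mice to 4.57%. In these bulk libraries fewer cells with other segments and less immunoglobulin RNA per such cell cannot be told apart.

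Genes that accompany a mature follicular repertoire were low in the same libraries. Ighd, the constant region of IgD, was at 11.6, 17.8 and 5.88% of the wildtype mean in Z2551, Z2606 and Z2641 and at 8.03, 12.5 and 4.48% in B4376, B4437 and C1594. Fcer2a, which encodes CD23, a receptor of follicular B cells, was at 0.521 to 3.60% in the 6 transgenic mice, and Cr2, which encodes CD21, was at 0.424 to 5.37%. Both fell in each model by edgeR (Fcer2a log2 fold change -5.19 ± 0.41, adjusted p = 0.000196 in Eµ-MTCP1 and -6.55 ± 0.44, adjusted p = 9.87e-05 in Eµ-TCL1). Ighm, the constant region of IgM, was at 78.1 to 273% of the wildtype mean, with no call in either model (adjusted p = 0.108 and 0.275), and the switched constant region Ighg2c was at 0.0161 to 2.17%. Cd79a, a chain of the B cell receptor complex, was at 73.6 to 115%. Markers of B-1a cells (Cd5, Ctla4 and Zbtb32) summed to 348 to 648 CPM in transgenic mice and 18.6 to 30.9 CPM in wildtype. Plasma cell markers (Sdc1, Prdm1, Xbp1, Jchain, Mzb1 and Irf4), of cells rich in immunoglobulin RNA, summed to 620 to 3613 CPM in transgenic mice and 1200 to 1868 CPM in wildtype. Whether these genes and the Ighv reads left came from the same cells was not tested.

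The evenness of what was left also differed. Shannon entropy of the remaining segment shares was 5.90, 5.79 and 5.69 bits in Z2754, Z2755 and Z2785, it was 4.77, 4.43 and 1.38 bits in Z2551, Z2606 and Z2641, and it was 2.42, 2.54 and 2.98 bits in B4376, B4437 and C1594. The 3 most abundant remaining segments took 13.1 to 19.8% of the reads left in wildtype mice, 40.2, 45.7 and 90.2% in Eµ-MTCP1 and 74.5, 80.4 and 71.1% in Eµ-TCL1. Segments of at least 1% of the reads left numbered 31 to 35 in wildtype, 22, 18 and 5 in Eµ-MTCP1 and 11, 5 and 11 in Eµ-TCL1. With segments of at least 5% of Ighv reads also removed from the transgenic mice, entropy rose to 3.57 bits in Z2641 and 3.86 bits in B4437, and segments of at least 1% to 14 and 16. No value of a transgenic mouse lay within the wildtype range for any of these 3 measures under either rule.

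The transgenic residual repertoires rested on 564, 2538 and 2258 reads in Eµ-MTCP1 and on 1250, 2323 and 637 reads in Eµ-TCL1, against 19917 to 24212 in wildtype, so the number of segments over the floor depends on depth. It was 95 to 98 in wildtype and 33, 57, 20, 27, 36 and 18 in Z2551, Z2606, Z2641, B4376, B4437 and C1594. With the wildtype shares and the number of reads left in the transgenic library, a binomial expectation gave 44.0 to 47.1 segments at the depth of Z2551, 74.0 to 79.5 at that of Z2606 and 72.2 to 77.7 at that of Z2641. It gave 62.5 to 66.7 at the depth of B4376, 72.6 to 78.2 at that of B4437 and 47.3 to 50.2 at that of C1594. These expected numbers cover counting error only and take the wildtype shares as fixed. The observed number lay below the expected range in each transgenic mouse, and the difference was not tested.

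**Figure D2:**
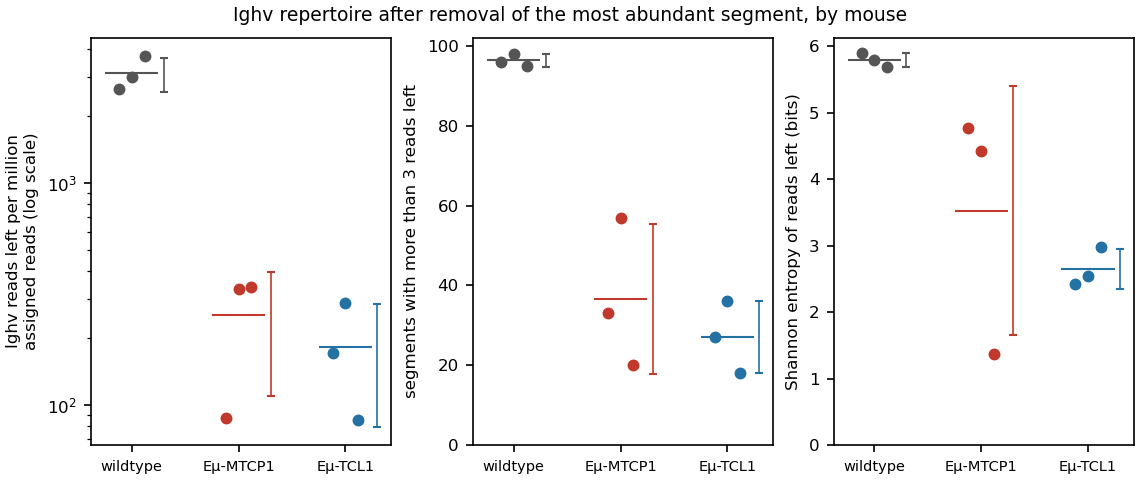
The repertoire left after removal of the most abundant segment, 1 point per mouse and 3 mice per group, with its abundance in CPM and its evenness. Wildtype mice sit at 2644 to 3723 CPM and 5.69 to 5.90 bits, and the transgenic mice at 85.1 to 339 CPM and 1.38 to 4.77 bits, without overlap.

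Family composition of the reads left was compared between the 6 transgenic and the 3 wildtype mice with two-sided exact permutation tests on 15 shares (12 families and 3 spans, Benjamini-Hochberg adjusted over the 15), for which the smallest unadjusted p is 0.0119. VH1 held 49.6, 49.7 and 53.4% of the reads left in wildtype mice, 28.1, 37.2 and 3.90% in Eµ-MTCP1 (Z2551, Z2606, Z2641) and 17.4, 27.1 and 18.5% in Eµ-TCL1 (B4376, B4437, C1594). It was lower in 6 of 6 transgenic mice, with a mean of 22.1% ± 11.5 against 50.9% ± 2.15 (difference -28.8 percentage points, exact permutation adjusted p = 0.0357). A VH1 segment had been removed from Z2551, B4376 and B4437, and from wildtype with the same segment removed VH1 would hold 42.7 to 45.9%, still above these mice.

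Smaller families were also less used. VH8 held 4.79 to 5.81% in wildtype and 0.133 to 2.48% in transgenic mice, VH9 held 3.94 to 5.93% and 0.974 to 3.19%, and VH10 held 1.22 to 3.63% and 0 to 0.709%. The groups did not overlap for these 3 families (adjusted p = 0.0357 each, exact permutation test). VH3 (5.64% ± 1.87 in wildtype, 1.30% ± 1.44 in transgenic mice) and VH4 (2.80% ± 1.43 and 0.325% ± 0.714) were lower on average with some overlap (adjusted p = 0.0446 each, exact permutation test). The shares of one library sum to a whole, so a segment that holds much of the rest lowers all the others, and the 15 tests are not independent.

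Other families did not pass the test, and their spread between transgenic mice was wide. VH14 held 2.48 to 4.25% in wildtype, 81.3% in Z2641 and 70.5% in B4376, and 0.157 to 3.37% in the other transgenic mice (adjusted p = 0.649, exact permutation test). VH11 held 0.693, 0.823 and 2.52% in wildtype, 2.84, 5.94 and 0.177% in Eµ-MTCP1 and 2.24, 4.07 and 49.7% in Eµ-TCL1 mice (adjusted p = 0.649, exact permutation test). VH5 was 10.6% ± 1.30 in wildtype and 10.4% ± 10.7 in transgenic mice, with 31.2% in Z2551. VH12, too rare in wildtype to be tested, was 0.115 to 0.565% of the reads left there, 12.9% in Z2551, 3.01% in Z2641, 0.880% in B4376 and 59.4% in B4437. In Z2606 and C1594 its segment was the one removed.

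By position, the reads left in transgenic mice lay nearer to the D segments. No VH1 segment lies in the D-proximal span, so this rise and the fall of VH1 are not separate results. The D-proximal span held 35.8, 40.0 and 36.5% in wildtype mice, 65.2, 56.9 and 96.0% in Eµ-MTCP1 and 79.5, 69.6 and 62.6% in Eµ-TCL1, higher in 6 of 6 transgenic mice (71.6% ± 14.1 against 37.4% ± 2.26, exact permutation adjusted p = 0.0357). The removed segment was D-proximal in every wildtype mouse but not in Z2551, B4376 or B4437, so removal itself lowered the wildtype share. Before removal wildtype mice held 43.2, 43.5 and 45.8%, still below 6 of 6 transgenic mice. With wildtype left whole, no share passed the threshold. The distal span held 32.2, 30.3 and 30.3% in wildtype, 15, 30.1 and 3.15% in Eµ-MTCP1 and 12.5, 10.5 and 4.24% in Eµ-TCL1 mice (adjusted p = 0.0446, exact permutation test). The groups did not overlap for the distal span after removal, though Z2606 lay next to the wildtype range. Before removal the wildtype mice held 28.5, 28.5 and 25.8% there, below Z2606, so this separation rested on the removal. The middle span held 31.7% ± 1.77 in wildtype and 15.8% ± 11.2 in transgenic mice and did not pass the test (adjusted p = 0.119).

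Against wildtype alone, 3 mice of 1 model cannot give an exact p below 0.1, and VH1, VH8, VH9, VH10 and the D-proximal and distal spans reached that value in both models. Between the models VH5 reached it, with 31.2, 9.27 and 9.77% in Eµ-MTCP1 and 2.64, 2.63 and 6.63% in Eµ-TCL1, and the other 14 shares had exact permutation p-values of 0.4 or more. The D-proximal share was 72.7% ± 20.6 in Eµ-MTCP1 and 70.6% ± 8.50 in Eµ-TCL1 (p = 0.9, exact permutation test), and VH1 was 23.1% ± 17.2 and 21% ± 5.32 (p = 0.9, exact permutation test).

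Of the 15 shares, 8 passed the threshold, and these calls rested on the definition of the residual repertoire. In 2 transgenic mice a further segment held at least 5% of Ighv reads, Ighv14-1 with 6.99% in Z2641 and Ighv12-3 with 9.23% in B4437. With these removed as well, 0 of the 15 shares passed. The VH1 difference was then -19.4 percentage points (adjusted p = 0.268, exact permutation test), with B4437 at 66.9%, above the wildtype mice. The D-proximal difference was 23.9 points (adjusted p = 0.179), with B4437 at 25.2%, below the wildtype mice, and the other 5 transgenic mice at 56.9 to 79.5%. None of the 15 passed with the authors' gene count table either, or with wildtype left whole. The same held when any 1 library other than Z2606 was left out, which raises the smallest unadjusted p to 0.0179 without a transgenic and to 0.0357 without a wildtype library. The VH1 and D-proximal differences kept their sign in all of these.

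**Figure D3:**
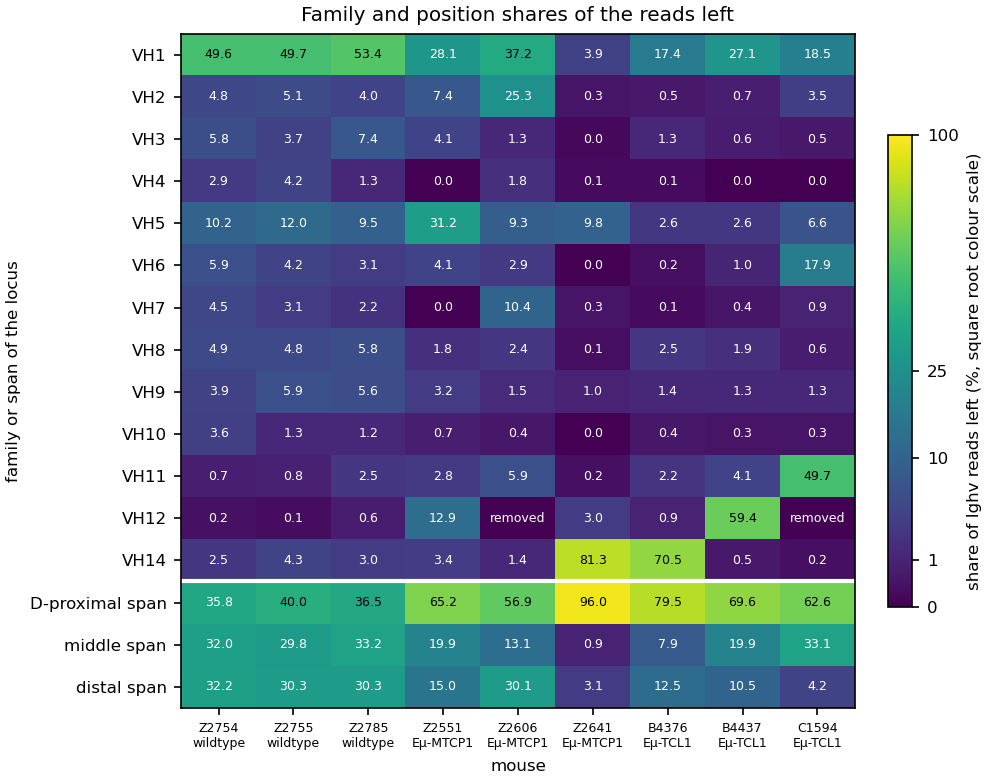
Shares of the reads left (percent) by mouse, for the 12 families tested, VH12 and the 3 spans of the locus, on a square root colour scale. Wildtype columns are alike, with VH1 at 49.6 to 53.4%, while the transgenic columns differ from one another, with VH14 at 81.3% in Z2641, VH12 at 59.4% in B4437 and VH11 at 49.7% in C1594.

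Each transgenic mouse had its own second segment. In Z2551 the reads left were led by Ighv5-4 with 118 reads (20.9%, 95% Wilson interval 17.8 to 24.5%), followed by Ighv12-3 with 72.6 reads (12.9%) and Ighv5-9-1 with 36 (6.38%). In Z2606 Ighv2-3 came first with 608 reads (24.0%, 22.3 to 25.7%), then Ighv1-82 with 307 (12.1%) and Ighv7-3 with 244 (9.60%). Both had a spread-out rest, the former at low depth. Intervals cover counting error only.

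The other 4 transgenic mice had a rest that was itself dominated by few segments. In Z2641 Ighv14-1 took 1830 of the reads left (81.1%, 79.4 to 82.6%), then Ighv5-9 with 139 (6.14%) and Ighv12-3 with 68 (3.01%). The share of Ighv14-1 depended on the table: on the standard reference it held 53.4% (1701 reads), beside 25.3% for the pseudogene segment Ighv5-1 and 13.3% for Ighv14-3, and in the gene count table it held 64.3% (1911 reads). In B4376 Ighv14-2 took 881 reads (70.5%, 67.9 to 72.9%), then Ighv11-2 with 28 (2.24%) and Ighv1-53 with 22 (1.76%). In the gene count table Ighv14-2 held 58.3% in that mouse (705 reads) and Ighv1-59 came next with 158 reads (13.1%). In B4437 Ighv12-3 took 1380 reads (59.4%, 57.4 to 61.4%), then Ighv1-7 with 364 (15.7%) and Ighv1-55 with 122 (5.26%).
In C1594 Ighv11-2 took 316 reads (49.7%, 45.7 to 53.5%), then Ighv6-3 with 90.9 (14.3%) and Ighv1-26 with 45 (7.07%). The first remaining segment lay in the D-proximal span in all 6 mice, but in the gene count table that of Z2551 was Ighv1-50, in the middle span.

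Reads of a leading segment can be assigned to a near copy of it. Identity of the first remaining segment to the removed one ranged from 61.5% for Ighv12-3 and Ighv1-15 in B4437 to 81.0% for Ighv14-2 and Ighv1-50 in B4376. Among later ones, Ighv5-9 in Z2641 was 94.1% identical to the leader Ighv5-4, with a shared run of 88 bases, and its reads changed with the table, from 139 to 0 with the standard reference and 1 in the gene count table. Segments at least 90% identical to the leader held 12.5% of the reads left in Z2551 and 9.58% in B4376, below the 19.2 to 24.1% and 16.9 to 23.5% that the same segments held in wildtype, and 9.32% in Z2641, above the 3.91 to 7% in wildtype. The leader of each transgenic library was the same in the 3 tables examined. So was the first remaining segment, except in Z2551, where the gene count table placed Ighv1-50 first with 88 reads and Ighv5-4 next with 83.

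Measured in CPM, most remaining segments were lower than in wildtype and a few were higher. Apart from the leader, 92 segments had over 3 reads in every wildtype mouse, and 88 to 91 of them were below the lowest wildtype mouse in each transgenic mouse. These 92 were chosen by their wildtype reads, which favours lower values elsewhere. The share of all genes below or above the wildtype range was not determined. Over all segments other than the leader with over 3 reads in the transgenic library, 1 or 2 per mouse were above the highest wildtype mouse in 5 mice, and none in Z2551. The one in C1594, Ighv6-4, is not among the 92. Ighv14-1 reached 275 CPM in Z2641 against 9.44 to 20.7 CPM in wildtype, 17.3 times the wildtype mean, and Ighv12-3 reached 171 CPM in B4437 against 3.44 to 21.1 CPM, 17.2 times the mean. Ighv14-2 reached 121 CPM in B4376 (wildtype 21.8 to 39.7 CPM), Ighv2-3 reached 79.6 CPM in Z2606 (13.8 to 28.9 CPM) and Ighv1-7 reached 45.3 CPM in B4437 (8.12 to 12.7 CPM). In C1594 Ighv6-4 had 18 reads, 2.41 CPM against 0 to 1.46 CPM in wildtype, whereas its first remaining segment, Ighv11-2, stood at 42.3 CPM, within the wildtype range of 18.3 to 93.8 CPM. Without the segments above the wildtype range, the rest summed to 87.2, 253 and 64.1 CPM in Z2551, Z2606 and Z2641 and to 50.7, 71.8 and 82.7 CPM in B4376, B4437 and C1594.

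**Figure D4:**
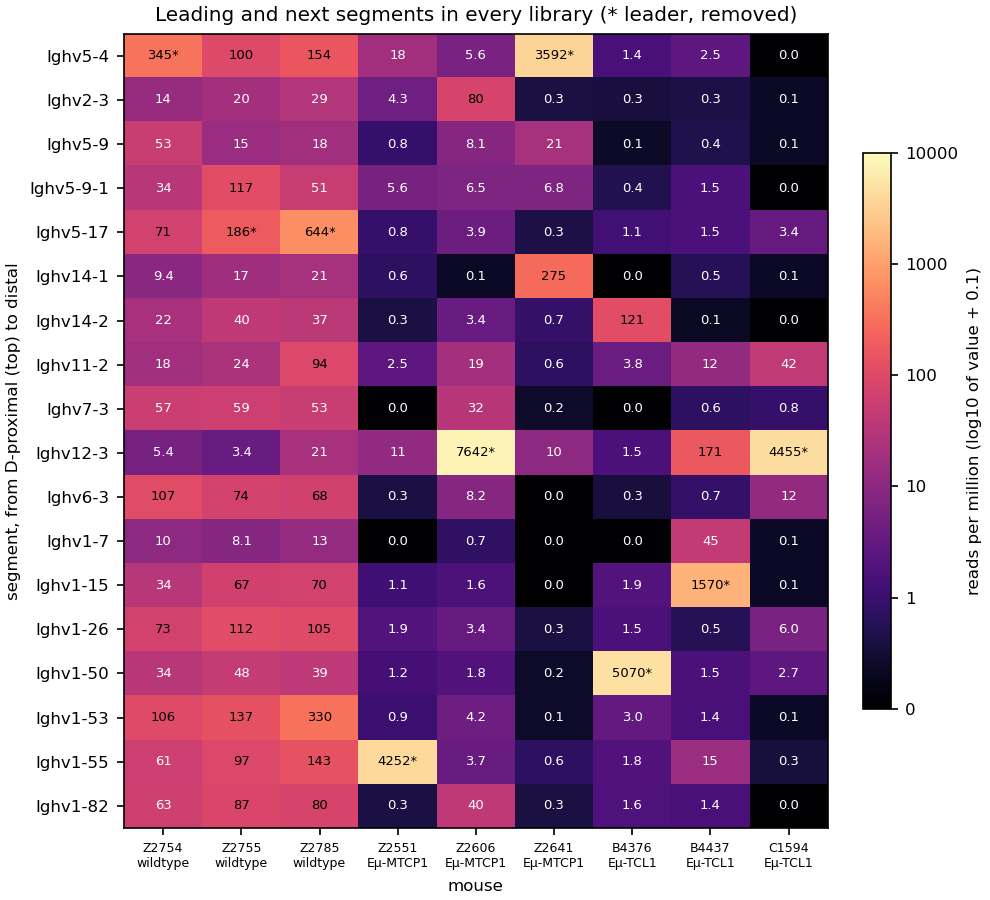
Level in CPM of the leading and next segments (rows, from D-proximal to distal) in every mouse (columns), on a log10 colour scale after a small constant was added. An asterisk marks the segment removed from that library. Apart from the leaders, Ighv14-1 in Z2641 (275 CPM), Ighv12-3 in B4437 (171 CPM) and Ighv14-2 in B4376 (121 CPM) stand above their wildtype levels.

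Segments that led one transgenic library were looked for in the others. Ighv12-3, the leader of Z2606 with 58410 reads and of C1594 with 33314, had 1380 reads in B4437, 72.6 in Z2551, 68 in Z2641 and 11 in B4376, and 27 to 137 in wildtype mice. Ighv5-4, the leader of Z2641, had 118 reads in Z2551, 43 in Z2606, 20 in B4437, 10 in B4376 and 0 in C1594. Ighv1-55, the leader of Z2551, had 122 reads in B4437 and 2 to 28 in the other 4. Ighv1-50, the leader of B4376, had 1 to 20 reads in the other 5, and Ighv1-15, the leader of B4437, had 0 to 14.
Human TCL1A had 3 to 18 reads in the libraries of mice without it, 2.65 to 15.9 per 100000 of its reads where it was present, and human MTCP1 had 0 to 3, up to 29.0 per 100000. Per 100000 reads of the segment in all libraries that it led, Ighv12-3 stood at 1505 in B4437, 79.1 in Z2551, 74.1 in Z2641 and 12 in B4376, and Ighv5-4, which also led wildtype Z2754, stood at 445 in Z2551, 162 in Z2606, 75.3 in B4437 and 37.7 in B4376. The part of carry-over between libraries in the low values was not tested.

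Recurrence across the remaining repertoires was counted only in mice from which a segment had not been removed. Ighv1-72, Ighv9-3 and Ighv11-2 had over 3 reads in all 6 transgenic mice. Ighv1-72 had 3.01 to 20.9 reads there and 452 to 870 in wildtype, and Ighv9-3 had 5 to 25 reads there and 489 to 1089 in wildtype. Ighv11-2 had 16, 148 and 4 reads in Eµ-MTCP1 (2.48, 19.3 and 0.600 CPM), 28, 94.6 and 316 in Eµ-TCL1 (3.85, 11.7 and 42.3 CPM), and 138, 186 and 610 in wildtype (18.3, 23.7 and 93.8 CPM). Its lowest wildtype value was thus exceeded by Z2606 and C1594. A further 4 segments were over the floor in 5 transgenic mice, 12 in 4, 19 in 3, 15 in 2 and 18 in 1. The 12 include Ighv12-3, over the floor in all 4 mice where it could be counted, and Ighv1-50, Ighv1-55 and Ighv5-4, in 4 of 5, and the 19 include Ighv1-15, in 3 of 5. No read count over 3 was seen in any transgenic mouse for 44 of the 115 segments, of which 24 were over the floor in all 3 wildtype mice and none averaged 1% of wildtype reads. Of the 34 segments that averaged at least 1% in wildtype, 20, 33 and 11 were over the floor in Z2551, Z2606 and Z2641 and 17, 28 and 13 in B4376, B4437 and C1594.

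The overlap of usage between libraries, taken as the sum over segments of the smaller of the 2 shares of the reads left, was 73.2 to 77.7% between wildtype mice. Between transgenic and wildtype mice it averaged 47.9% for Z2551, 39.6% for Z2606 and 9.64% for Z2641, and 27.1, 19.9 and 23.2% for B4376, B4437 and C1594. Pairs of transgenic mice overlapped by 3.61 to 32.0%, with a median of 14.7%. A segment removed from one library and abundant in the rest of another, as Ighv12-3 in B4437, lowers the overlap of that pair by construction. With all 6 leading segments removed from all libraries, a setting chosen after seeing the data, transgenic pairs overlapped by 3.47 to 36.6% (median 19.5%) and wildtype pairs by 75.7 to 76.6%. With segments of at least 5% of Ighv reads also removed from the transgenic mice, overlaps of transgenic with wildtype mice were 21.9 to 50% and those of transgenic pairs 8.02 to 33.4%. Fewer reads by themselves lower an overlap, and depth was not equalised for this measure.

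**Figure D5:**
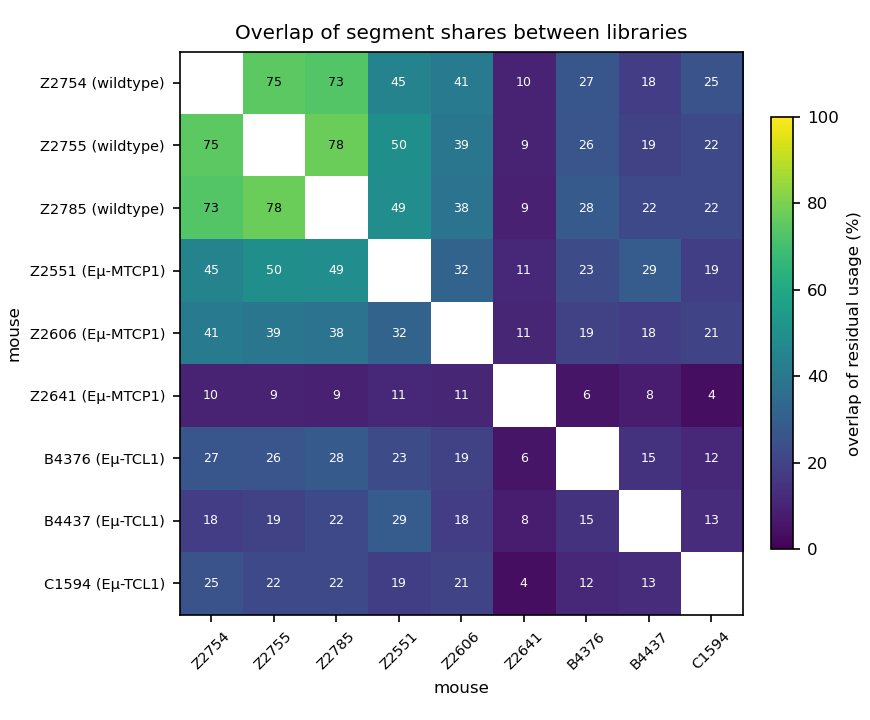
Overlap of segment shares (percent of the reads left) for each pair of mice after removal of each library's most abundant segment. Wildtype pairs share 73.2 to 77.7%, transgenic mice share 9.37 to 50% with wildtype, and pairs of transgenic mice share 3.61 to 32.0%.

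Segment by segment, each model was compared with wildtype over all 11270 genes that passed the filter on low counts, with edgeR's quasi-likelihood test. Of the 115 segments, 87 entered the test and 28 did not, 8 of them without any read. In Eµ-MTCP1 mice 66 of the 87 were lower at an adjusted p under 0.05, where 3.91% of all genes tested were lower, and 0 were higher (1 at an unadjusted p under 0.05, beside 13.4% of all genes), where 5.36% of all genes were higher. In Eµ-TCL1 mice 75 of the 87 were lower, where 4.06% of all genes were lower, and 0 were higher (2 at an unadjusted p under 0.05, beside 13.1% of all genes), where 5.02% of all genes were higher. A segment that entered through its wildtype level had to be lower in the others, so these counts describe the segments tested. The 2 comparisons share the wildtype mice, and 65 segments were called in both, 98.5% of the 66 and 86.7% of the 75. Since most of the 87 were called in each comparison, a large shared count follows from those counts alone. The share of all genes called in both was not determined. The median log2 fold change of the 87 was -5.17 in Eµ-MTCP1 and -6.08 in Eµ-TCL1, beside -0.02 and -0.01 for all genes tested.

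Segments were named here by the largest fitted decreases. Where a group had no read, the size of the fitted fold change depends on the prior count, so such a segment heads the order only through that fit and is given by a lower bound, which can lie below the fold of a segment with reads. In Eµ-MTCP1 mice Ighv1-34, with 34.1 to 58.3 reads in wildtype, and Ighv1-11, with 22 to 86, had no read, at least 42.6-fold and 41.5-fold lower when 3 reads over the group are taken as the floor (edgeR adjusted p = 0.0109 and 0.00943). Each call was lost without 1 wildtype mouse. Without Z2755 the bound of Ighv1-11 fell to 22.2-fold (edgeR adjusted p = 0.0510), while without Z2754 that of Ighv1-34 did not fall and was 44.6-fold (adjusted p = 0.0594). On the standard reference the log2 fold change of Ighv1-34 was -5.56 in Eµ-MTCP1. Ighv1-58 had 71.0, 129 and 201 reads in wildtype and 0, 0 and 1 in Eµ-MTCP1 (log2 fold change -7.99 ± 1.20, adjusted p = 0.00273). In Eµ-TCL1 mice Ighv4-1, the single VH4 segment, had 1, 0 and 0 reads against 568, 990 and 324 in wildtype (-10.26 ± 1.46, adjusted p = 0.00194). Ighv13-2 had none against 75.0 to 172 in wildtype, at least 117-fold lower (adjusted p = 0.000966), and Ighv8-5 had 0, 2 and 0 against 92 to 467 (-8.45 ± 1.36, adjusted p = 0.00388). Of the 5 most used wildtype segments, Ighv5-17, Ighv1-53, Ighv3-6 and Ighv9-3 were called lower in both models, while Ighv5-4 was called in neither. Ighv1-53 had log2 fold changes of -6.50 ± 0.94 in Eµ-MTCP1 and -6.88 ± 0.96 in Eµ-TCL1 (adjusted p = 0.00223 and 0.00181), and Ighv5-17 had -7.24 ± 1.06 and -7.14 ± 1.04 (adjusted p = 0.00229 and 0.00233).

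Ighv12-3, Ighv11-2, Ighv1-55 and Ighv5-4 were not called in either model. Ighv12-3 had a log2 fold change of 8.19 ± 3.09 in Eµ-MTCP1 (adjusted p = 0.134) and 7.41 ± 2.99 in Eµ-TCL1 (adjusted p = 0.157). Ighv11-2 had -2.39 ± 1.16 (adjusted p = 0.233) and -1.11 ± 1.10 (adjusted p = 0.580), and Ighv1-55 had 4.01 ± 2.19 and -4.01 ± 2.25 (adjusted p = 0.285 and 0.305). Ighv5-4 had 2.83 ± 1.73 in Eµ-MTCP1 and -7.14 ± 2.23 in Eµ-TCL1 (adjusted p = 0.339 and 0.0752). Ighv12-3 had 72.6, 58410 and 68 reads in the 3 Eµ-MTCP1 mice and 11, 1380 and 33314 in the 3 Eµ-TCL1 mice, so neither model was uniform.

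Eµ-TCL1 and Eµ-MTCP1 mice were compared with each other in the same fit. None of the 87 segments was called in either direction, where 0.0177% of all genes were called higher and 0.0177% lower. At an unadjusted p under 0.05, 4 were higher and 19 lower, beside 3.26% and 3.19% of all genes. The DESeq2 Wald test called 0 higher and 3 lower, beside 0.339% and 0.294% of all genes. Their median log2 fold change was -1.07.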

How the data were processed

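Estimated counts per transcript and TPM values were deposited for each of the 9 libraries, made by the authors with Salmon 1.0.0 on a mouse reference with human transgene sequences and on a standard mouse reference. The submitters' processing notes also list CASAVA 1.8.2, HISAT2 2.0.6, Subread, featureCounts, DESeq2 and genome build GRCm38.p4. The paper names SMARTer, Nextera XT and TruSeq stranded kits. Whole counts per gene were deposited by the authors as a separate table. Values on a log2 scale were made by the authors with DESeq2 and served here to check the transgenes. The deposited tables also hold the authors' fold changes, base mean signals, Wald scores and p-values, none of which were used. A second count table and the DESeq2 table of the standard reference were not used here.

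Transcripts were summed to genes with GENCODE M21 (the paper states release 23), and 0.342 to 0.482% of reads fell on transcripts outside it. In the series tables used, 0 columns of sample values were left unmapped. The most abundant segment was removed from each library, wildtype included. A sum of counts is not corrected for length. Rounded estimated counts of all genes were fitted with edgeR 4.0.16 in R 4.3.3 (filterByExpr, TMM, 1 coefficient per group, 9 libraries, quasi-likelihood test, Benjamini-Hochberg over 11270 genes), and the fit and the permutation test were tested on simulated data. DESeq2 1.42.0 was an alternative. Identity was computed with Biopython 1.88 over the last 290 bases. Each library came from 1 mouse. Recombination signals beside the segments were not analysed here. Named segments were the leader of each library, the 3 next in each transgenic library, the 5 most used in wildtype, the most used of each family, the 3 largest called changes by fitted fold change in each direction, and Ighv12-3, Ighv11-2 and Ighv1-55. Segments named for recurrence, for a level above wildtype or for sequence identity were chosen after their values were seen. The members and lists were chosen with earlier results of these data known. The summed level of the B cell marker list is not reported here.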

Additional observations from a re-analysis of the deposited data

Results flagged for a closer look

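On the standard reference, which also held 70 pseudogene segments that are not among the 115 segments described, Z2641 had 807 reads (806.961 estimated) on the pseudogene segment Ighv5-1, 2.25% of its Ighv reads, where wildtype mice had 0 to 3 and the other transgenic mice 0. The gene count table gave 823 reads. In the same library the pseudogene segment Ighv2-1 had 12 reads, and all other libraries had 0. Both stood above the wildtype level in data outside the comparisons. Z2641 was also the library in which Ighv5-9 had 139 reads with the transgene reference and 0 with the standard one, and Ighv14-3 had 0 and 424. The part of read assignment between near copies in these values was not tested.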

How the results depend on the processing

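The 5 shares past the threshold with TPM in place of reads compare with 8 as reported, and 0 passed with the authors' gene count table, with segments of at least 5% removed from the transgenic mice, with wildtype left whole, or with all 6 leading segments removed from all libraries, a setting chosen after seeing the data. In these 4 settings the difference between transgenic and wildtype mice was -23.1, -19.4, -23.3 and -20.0 percentage points for VH1 and 26.7, 23.9, 27.5 and 24.6 for the D-proximal span. With the leader's whole family removed, the D-proximal difference was 52.9 points, against 34.2 with the leading segment alone removed, and that of the middle span, -25.9, passed the threshold. Leaving out 1 library gave 0 to 8 shares, -31.9 to -25.2 points for VH1 and 29.4 to 37.2 for the D-proximal span. The VH5 difference, -0.209 as reported, turned positive with the standard reference (2.75), the gene counts (0.651) and the 5% rule (7.40), and ranged from -4.38 to 1.34 without 1 library. That of VH6, -0.0669 as reported, did so with TPM (0.0118), gene counts (1.82), values under the floor set to 0 (0.111), the 5% rule (0.185), wildtype whole (0.395) and all leaders removed (0.487), and ranged from -2.78 to 0.801. That of VH2 ranged from -2.15 to 2.86. Neither VH2, VH5 nor VH6 passed the test as reported, and the cause of the changes was not tested.

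The reads left, 6.95% of wildtype, were 4.57 to 8.29% over all alternatives. Segments called lower numbered 62 to 69 (Eµ-MTCP1) and 74 to 79 (Eµ-TCL1) over other tools and tables, and 48 to 69 and 53 to 79 without 1 library. Between the models the DESeq2 Wald test called 3. Over 2115 repeats of single called segments 0 changed direction and 193 lost the call. No paired analysis was possible because the replicate numbers were given in accession order, name different animals and tie no mice of different groups together. Depth limits the rest of Z2551 (564 reads) and C1594 (637 reads) most.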
